A study of Arabidopsis thaliana with 18 samples.

Results

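The circadian clock genes of Arabidopsis thaliana were followed here across wild-type and abscisic acid (ABA) receptor mutant seedlings under ABA and osmotic stress. The members were 9 loci fixed by name, namely CCA1, LHY, LUX, PRR5, PRR7, PRR9, TOC1, GI and ELF4, and 6 of them were among the 6740 genes of the deposited table. CCA1 (AT2G46830), LHY (AT1G01060), PRR7 (AT5G02810), GI (AT1G22770), LUX (AT3G46640) and ELF4 (AT2G40080) were listed, and PRR5 (AT5G24470), PRR9 (AT2G46790) and TOC1 (AT5G61380) were not analysed here. Every gene of the table carried at least 1 call of a change by the authors, so a listed gene had to be called somewhere, and that each of the 6 was called is not a finding.

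Whole seedlings in the Col-0 background were 9 days old when they were moved for 24 h onto filter paper. The wild type and the pyl duodecuple line, which carries mutations in 12 genes of the PYR/PYL family of ABA receptors, were each given MS medium alone as the control, 100 µM ABA, or 300 mM mannitol, a sugar alcohol that draws water from cells. These 6 groups held 3 samples each. The 12 loci were read from the series title as PYR1, PYL1, PYL2, PYL3, PYL4, PYL5, PYL7, PYL8, PYL9, PYL10, PYL11 and PYL12, and the labels name no alleles. For each group the table gives a single value, a summary of its 3 samples that is taken as FPKM (fragments per length of transcript and library size), so no value has a replicate error, depth is unknown, and no test could be run. A gene is said to rise or fall only where the authors called it, and all other ratios are described without a call.

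The plant clock is a set of transcription factors that switch each other off in turn through the day. CCA1 and LHY are paired MYB-like repressors that peak around dawn, the PRR proteins follow through the day and repress CCA1 and LHY, and the evening complex, with LUX as its DNA-binding part and ELF4 as a small partner, acts at dusk and into the night. GIGANTEA (GI) is a large protein of the afternoon that stabilises the F-box protein ZTL and helps set flowering time. Clock components are known to gate ABA and drought responses, and the ABA pathway is known to feed back on several of them. The labels give neither the hour of harvest nor the light regime, so with 1 time point a change in the level of a rhythmic transcript and a shift of its phase cannot be told apart. In whole seedlings, fewer cells expressing a gene and less RNA per cell cannot be told apart either.

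As a check of the labels, 5 of the 12 mutated receptor genes were listed. In the duodecuple control PYL5 stood at 13.1 FPKM against 90.6 in the wild-type control and PYL8 at 73.0 against 225, while PYL4 stood at 112 against 183, PYR1 at 181 against 173 and PYL12 at 1.57 against 0.407 FPKM. The lesions themselves cannot be read from such levels. The tissue of whole seedlings was visible in its markers. All 6 green tissue markers and 6 of 8 root markers were listed, and none of these was at 0 in any group. The summed green tissue markers stood at 26977, 18002 and 4642 FPKM in the wild type under control, ABA and mannitol, and at 24478, 23759.8 and 14091.5 FPKM in the duodecuple line. Single green markers went other ways in the duodecuple line. Under ABA LHCB2.1 fell 2.01-fold there and LHCB1.3 was 1.85-fold lower, while RBCS1A, RBCS1B, CA1 and RCA were 1.10-fold to 1.18-fold higher. Of these only LHCB2.1 was called. Under mannitol LHCB2.1 was 1.54-fold higher without a call, and the other green markers were lower. The summed root markers stood at 206, 59.5 and 67.9 FPKM in the wild type and at 155, 145 and 43.7 FPKM in the duodecuple line. THAS1 makes up 124 of the 206 FPKM, and single root markers went other ways. Under mannitol in the wild type EXPA7 rose 3.41-fold and COBL9 was 1.73-fold higher without a call. Untreated duodecuple seedlings had TIP2;3 and MRN1 37.2-fold and 52.4-fold below the wild type, with CASP1, COBL9 and EXPA7 above it by at most 1.57-fold. The part of these tissue markers in the clock gene values below was not tested.

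The stretches upstream of the members that were called under ABA in the wild type (CCA1, LHY, LUX) or under mannitol in both genotypes (PRR7, GI) are shown because promoters are where ABA-response factors and the clock's own repressors bind. Each is the 250 bases before the annotated gene start, on the strand of the gene, from the RefSeq genome and annotation of assembly TAIR10.1, and capitals mark matches to the motifs described after them.
CCA1, chr2:19245341-19245590, plus strand: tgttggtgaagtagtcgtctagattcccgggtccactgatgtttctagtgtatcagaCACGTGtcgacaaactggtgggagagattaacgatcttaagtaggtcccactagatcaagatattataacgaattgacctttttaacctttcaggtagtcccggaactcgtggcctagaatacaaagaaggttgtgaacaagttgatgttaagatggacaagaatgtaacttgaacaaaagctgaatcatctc
LHY, chr1:37872-38121, minus strand: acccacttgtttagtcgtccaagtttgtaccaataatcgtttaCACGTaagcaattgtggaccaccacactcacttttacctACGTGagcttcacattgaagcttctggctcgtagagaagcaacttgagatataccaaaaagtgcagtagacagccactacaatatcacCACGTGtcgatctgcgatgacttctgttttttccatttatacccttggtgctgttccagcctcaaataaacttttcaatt
LUX, chr3:17182792-17183041, plus strand: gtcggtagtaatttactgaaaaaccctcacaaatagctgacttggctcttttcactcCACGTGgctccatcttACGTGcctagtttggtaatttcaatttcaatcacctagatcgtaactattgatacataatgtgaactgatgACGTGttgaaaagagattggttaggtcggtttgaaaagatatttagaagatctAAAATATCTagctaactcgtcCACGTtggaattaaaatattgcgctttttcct
PRR7, chr5:642031-642280, minus strand: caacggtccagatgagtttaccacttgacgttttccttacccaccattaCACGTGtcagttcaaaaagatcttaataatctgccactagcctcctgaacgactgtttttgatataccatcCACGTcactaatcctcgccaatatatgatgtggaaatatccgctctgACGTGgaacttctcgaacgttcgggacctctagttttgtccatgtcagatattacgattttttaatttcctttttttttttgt
GI, chr1:8061501-8061750, plus strand: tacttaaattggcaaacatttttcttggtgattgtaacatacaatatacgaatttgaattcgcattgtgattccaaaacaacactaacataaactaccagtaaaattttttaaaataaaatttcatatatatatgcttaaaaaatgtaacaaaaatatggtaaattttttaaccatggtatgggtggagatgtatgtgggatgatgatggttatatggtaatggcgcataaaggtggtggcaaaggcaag

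The motifs were searched on both strands. They were the ABRE core ACGTG, bound by the bZIP factors of the ABA pathway, the palindromic G-box CACGTG, which holds that core on both strands and is bound by bZIP and bHLH factors, the evening element AAAATATCT and the CCA1-binding site AAAAATCT, both bound by CCA1 and LHY, and a LUX-binding site written GATNCG. A G-box stood in 4 of the 6 upstream stretches, those of CCA1, LHY, LUX and PRR7, and in 6.49% of the 27443 stretches of the same length before protein-coding genes. In CCA1 and LUX it began 193 bases before the gene start, in PRR7 at 201 and in LHY at 80. An ABRE core was found in 5 of the 6 stretches against 22.9% of all. Counted outside the G-boxes there were 3 cores in LUX, 2 in LHY, 2 in PRR7 and 1 in ELF4, and 0 in CCA1 and GI. The stretch of LUX held the evening element, from 53 to 45 bases before its start, a motif found in 2.36% of stretches. The LUX-binding site was matched in ELF4 alone and in 17.02% of all stretches, and the CCA1-binding site in none of the 6 and in 6.69% of all. GI had no match to any of these letters in this window. A match is a description of the sequence, and whether a factor bound there was not measured.

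**Figure D1:**
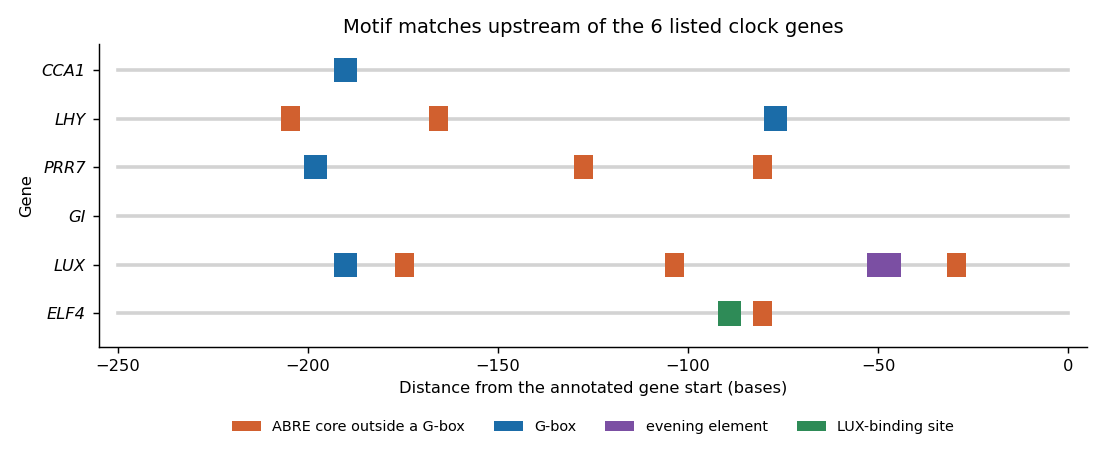
Motif matches in the 250 bases before the annotated start of each listed clock gene, with distance from the start in bases on the horizontal axis and 1 line per gene. Coloured blocks mark matches on either strand to the G-box, ABRE cores outside a G-box, the evening element and the LUX-binding site. CCA1, LHY, LUX and PRR7 each carry 1 G-box, and the line of GI is empty.

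The genes themselves lie on chromosomes 1, 2, 3 and 5, and all are protein-coding. In TAIR10.1 coordinates CCA1 covers chr2:19245591-19248915 on the plus strand, LHY chr1:33365-37871 on the minus strand, LUX, listed there as PCL1, chr3:17183042-17186959 on the plus strand, PRR7 chr5:637681-642030 on the minus strand, GI chr1:8061751-8067790 on the plus strand and ELF4 chr2:16734294-16734953 on the minus strand.

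Under ABA the wild type raised both dawn genes and lowered LUX, and the duodecuple line had no call on any of the 6. By the authors' deposited table, the wild type had calls for 3 of 6 members, where 44.9% of all table genes were called, so the number called is close to that of the table. By direction, 2 members rose against 17.6% of the table and 1 fell against 27.3%. In the duodecuple line 0 of 6 members were called, where 5.28% of the table was.

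CCA1 was the member with the widest spread over the 6 groups, 14.6-fold from lowest to highest. It stood at 2.79, 20.2 and 7.30 FPKM in the wild type under control, ABA and mannitol, and at 1.38, 2.68 and 2.69 FPKM in the duodecuple line. The ABA-treated wild type was the highest group, the mannitol-treated wild type came next, and the other 4 groups lay below 3 FPKM. With 1 value a group, no spread shows which neighbours in this order differ. The wild type rise under ABA was 7.25-fold, the 230th largest of 1185 rises, and that under mannitol was 2.62-fold, rank 1437 of 2230. The duodecuple ratios were 1.94-fold and 1.95-fold, neither of them called. Only 1 call of the whole table lay under 2-fold, so these ratios lie just under the size of nearly all called ones. Mannitol thus left CCA1 2.77-fold lower than ABA did in the wild type, and at 1.00-fold in the duodecuple line.

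LHY, the partner of CCA1, shared the rise under ABA and not that under mannitol. Its levels were 13.3, 36.6 and 8.62 FPKM in the wild type under control, ABA and mannitol, and 12.5, 15.7 and 6.60 FPKM in the duodecuple line. The ABA-treated wild type was again the highest group, and both mannitol groups were the lowest. The rise under ABA was 2.75-fold in the wild type, and the duodecuple ratio was 1.26-fold without a call. Under mannitol LHY was 1.54-fold lower in the wild type and 1.89-fold lower in the duodecuple line, both without a call. The level of LHY, which FPKM gives per length, was 4.77 times that of CCA1 in the wild-type control, 1.81 times under ABA and 1.18 times under mannitol. In the duodecuple line it was 9.01, 5.87 and 2.45 times that of CCA1, so in each genotype the pair stood closest under mannitol.

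LUX, the DNA-binding subunit of the evening complex, fell under ABA in the wild type. It stood at 33.9, 14.5 and 29.4 FPKM in the wild type under control, ABA and mannitol, and at 14.8, 14.1 and 20.0 FPKM in the duodecuple line. The wild-type control was the highest group, and the ABA-treated wild type lay at the level of the duodecuple control. The fall under ABA was 2.33-fold, rank 1442 of 1839 falls by size, and the duodecuple ratio was 1.05-fold lower without a call. With 5 FPKM added to both values the fall was under 2-fold. Under mannitol LUX was 1.15-fold lower in the wild type and 1.35-fold higher in the duodecuple line, again without calls. The level of LHY went from 0.392 times that of LUX in the wild-type control to 2.52 times under ABA. In the duodecuple line it was 0.840 times in the control and 1.11 times under ABA.

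The 3 members not called under ABA in either genotype lay within 1.45-fold of their controls there. The lack of a call does not by itself make a ratio small. The clock gene RVE3, for example, was 3.33-fold higher under ABA in the duodecuple line without a call, at 0.338 against 0.102 FPKM. PRR7, a repressor of CCA1 and LHY, was 1.16-fold higher under ABA in the wild type and 1.45-fold lower in the duodecuple line. GI was 1.26-fold lower and 1.12-fold higher, and ELF4 was 1.45-fold lower and 1.01-fold higher. The median log2 ratio under ABA over the 6 members was -0.06 in the wild type and 0.09 in the duodecuple line, against -0.31 and -0.03 over the whole table.

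**Figure D2:**
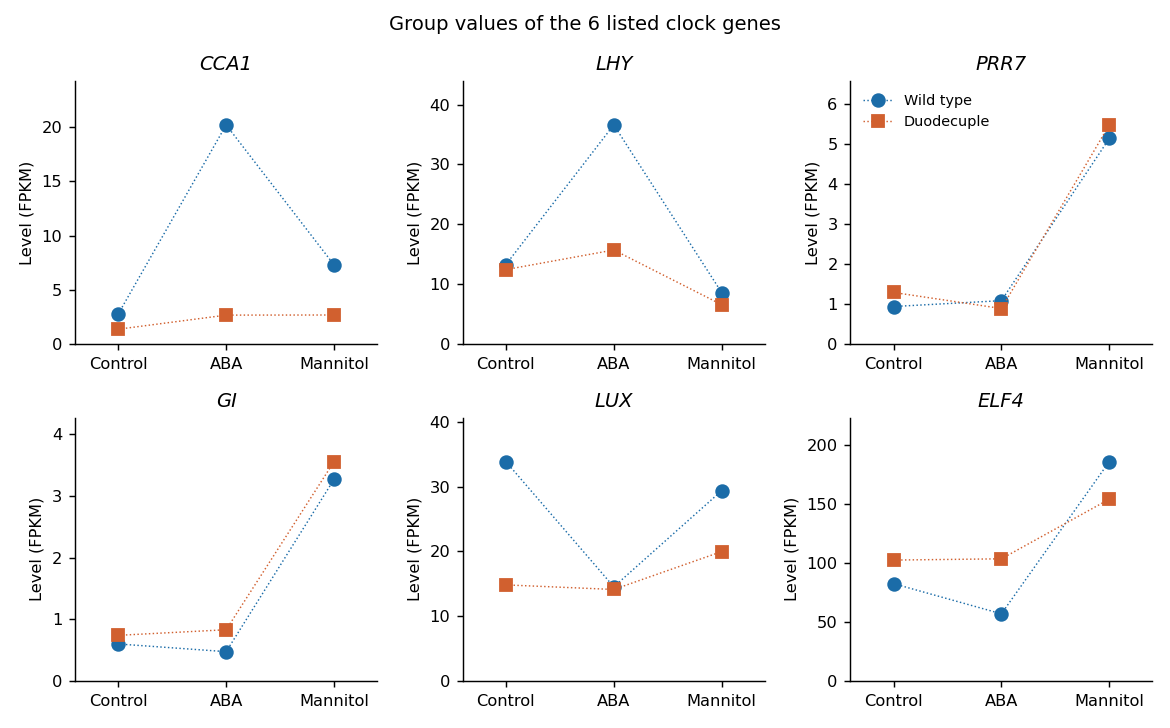
Level in FPKM of each listed clock gene in the 6 groups, 1 panel per gene, with treatments on the horizontal axis, circles for the wild type and squares for the duodecuple line. Each symbol is the authors' single value for a group, without error, and dotted lines join a genotype's groups. CCA1 and LHY peak in the ABA-treated wild type at 20.2 and 36.6 FPKM, and PRR7 and GI are high in both mannitol groups.

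Mannitol gave a different set of calls, in which PRR7 and GI rose in both genotypes. By the authors' deposited table, the wild type had 4 of 6 members called higher under mannitol, where 33.1% of the table was, and 0 were called lower, where 35.3% was. The duodecuple line had 2 members called higher against 23.3% of the table and 0 lower against 27.2%. The median log2 ratio over the 6 members was 1.28 in the wild type and 0.77 in the duodecuple line, against -0.20 and -0.29 over the whole table. With only 6 listed members, these medians are a description. After adding 5 FPKM to all levels, 1 of the 4 rises in the wild type, that of ELF4, and 0 of the 2 in the duodecuple line remained at least 2-fold, and PRR7 and GI are low throughout.

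PRR7 had levels of 0.940, 1.09 and 5.13 FPKM in the wild type under control, ABA and mannitol, and 1.29, 0.890 and 5.47 FPKM in the duodecuple line. Both mannitol groups were above 5 FPKM, and the other 4 groups lay at 1.29 FPKM or less. The rise under mannitol was 5.46-fold in the wild type and 4.24-fold in the duodecuple line. These placed it 531st among 2230 rises and 517th among 1572.

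GI had levels of 0.600, 0.475 and 3.27 FPKM in the wild type under control, ABA and mannitol, and 0.740, 0.831 and 3.56 FPKM in the duodecuple line. The pattern was that of PRR7, with both mannitol groups above the other 4. The rise was 5.46-fold in the wild type and 4.81-fold in the duodecuple line. All of these are low levels, and the highest of them, 3.56 FPKM, belonged to the duodecuple line under mannitol. PRR7 stood at 1.57 times the level of GI in the wild-type control and the mannitol-treated wild type, and at 2.29 times in the ABA-treated wild type. In the duodecuple line it stood at 1.75, 1.07 and 1.54 times under control, ABA and mannitol.

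ELF4, the small protein that joins LUX in the evening complex, was the member with the highest levels in every group. It stood at 82.5, 56.9 and 186 FPKM in the wild type under control, ABA and mannitol, and at 102, 104 and 154 FPKM in the duodecuple line. Both mannitol groups were the highest, and the ABA-treated wild type was the lowest. Its rise under mannitol in the wild type was 2.25-fold, rank 1837 of 2230. The duodecuple ratio was 1.50-fold without a call. LUX did not share it, and the level of ELF4 was 2.43 times that of LUX in the wild-type control, 3.91 times under ABA and 6.33 times under mannitol. In the duodecuple line ELF4 was already at 6.91 times LUX in the control, and at 7.33 and 7.71 times under ABA and mannitol.

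**Figure D3:**
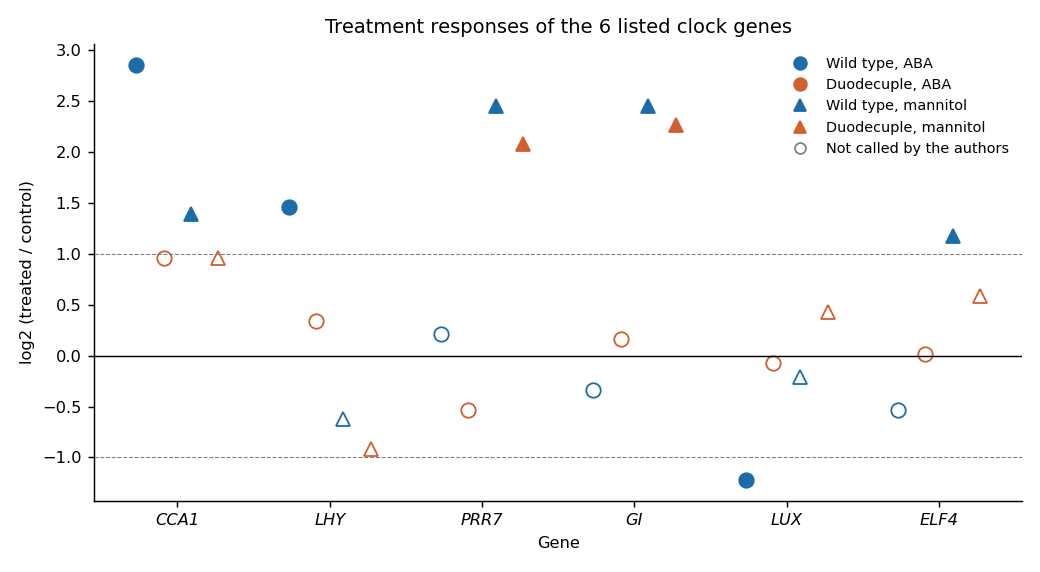
Log2 ratio of the treated over the control value for each listed clock gene, circles for ABA and triangles for mannitol, blue for the wild type and orange for the duodecuple line. Filled symbols carry a call in the authors' deposited table, open ones do not, and dashed lines mark 2-fold. For PRR7 and GI the mannitol triangles of both genotypes are filled, and no circle of the duodecuple line is.

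Set directly against ABA, mannitol left all 6 members at least 2-fold apart in the wild type, where 47.1% of table genes were. CCA1 and LHY were lower under mannitol, by 2.77-fold and 4.25-fold, and GI, PRR7, ELF4 and LUX were higher, by 6.89-fold, 4.72-fold, 3.27-fold and 2.02-fold. LUX was at the edge of the limit and fell under it with 1 FPKM added or with centring, which left 5 members. By direction these are 2 members against 19.1% of the table lower, and 4 against 27.9% higher. The duodecuple line had 3 of 6 at least 2-fold apart against 49.9% of the table. There PRR7 and GI were 6.14-fold and 4.29-fold higher under mannitol than under ABA, 2 members against 23.0% of the table, and LHY was 2.38-fold lower, 1 member against 26.9%. These ratios carry no call and were not tested, and within a genotype the ABA and mannitol responses above share their control samples.

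Between the genotypes, CCA1 and LUX were lower in untreated duodecuple seedlings. CCA1 was at 49.6% and LUX at 43.8% of the wild-type control level, 2 of 6 members at least 2-fold apart where 13.9% of the table was, and 6.21% of it in that direction. The other 4 members lay between 1.07-fold lower, for LHY, and 1.37-fold higher, for PRR7. The value of CCA1 rests on levels of 2.79 and 1.38 FPKM, a 2.02-fold difference at the edge of the limit. Centred on the median ratio of the table, it fell under the limit.

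Under ABA the genotypes stood apart in CCA1 and LHY instead. The duodecuple line held 13.3% of the wild-type level of CCA1 and 43.0% of that of LHY, 2 of 6 members at least 2-fold apart where 47.6% of the table was, and 18.6% of it in that direction. LUX was at 97.2% of the wild type, and ELF4 and GI were 1.82-fold and 1.75-fold higher. Under mannitol CCA1 alone was at least 2-fold apart, at 36.8% of the wild-type level, where 38.8% of the table was at least 2-fold apart and 20.7% lower. PRR7 and GI were then 1.07-fold and 1.09-fold higher in the duodecuple line, LHY was at 76.5%, LUX at 68.0% and ELF4 at 82.9% of the wild type. Across all 3 treatments CCA1 was thus at least 2-fold lower in the duodecuple line each time, with the control at the edge of the limit. The control difference was under 2-fold once centred or with 1 FPKM added, and the mannitol difference with 5 FPKM added.

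The ABA response differed at least 2-fold between the genotypes for 3 of 6 members, where 42.0% of the table did. The duodecuple ratio was 3.74-fold below the wild-type one for CCA1 and 2.18-fold below for LHY, which are 2 members against 16.2% of the table. It was 2.22-fold above for LUX, 1 member against 25.8%. For LUX the groups that set this difference were the controls, at 33.9 and 14.8 FPKM, with the ABA groups at 14.5 and 14.1 FPKM. The mannitol response differed at least 2-fold for 0 of 6 members, where 37.5% of the table did. The differences ran from 1.50-fold below the wild type, for ELF4, to 1.55-fold above, for LUX. None of these differences could be tested, and ELF4 is an example of a gene called in 1 genotype whose response differed by less than the limit.

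The members were also compared with each other by their values over the 6 groups. As a measure of likeness, log2 values were centred for each gene and the root mean square difference was taken over the 6 groups. PRR7 and GI were the closest pair at 0.32, followed by LUX and ELF4 at 0.60. LHY and GI were the farthest at 1.86. CCA1 and LHY, the paired dawn repressors, were 1.02 apart, with ratios of opposite sign under mannitol in both genotypes.

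The genes of the table closest to each member were sought among the 4963 genes with at least 5 FPKM in 1 group and no group at 0. For CCA1 they were UPI (AT5G43580), a protease inhibitor gene, at 0.21, DOX1 (AT3G01420), which encodes an alpha-dioxygenase, at 0.24 and RD26 (AT4G27410), a NAC factor gene induced by dehydration, at 0.29. UPI stood at 78.7, 891 and 299 FPKM in the wild type and at 53.2, 97.6 and 109.6 FPKM in the duodecuple line, in the same order of treatments. For LHY they were CYP71B35 (AT3G26310) at 0.19, UNE10 (AT4G00050), a bHLH factor gene, at 0.23 and HA11 (AT5G62670), a proton pump gene, at 0.23. For LUX they were CYP705A1 (AT4G15330) at 0.11, LSH5 (AT5G58500) at 0.14 and the clock gene COR27 (AT5G42900) at 0.27.

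For PRR7 the closest genes were RK3 (AT4G21380), a receptor kinase gene, at 0.099, CYP71B23 (AT3G26210) at 0.17 and LYK5 (AT2G33580), a receptor of chitin fragments, at 0.18. RK3 had 1.07, 1.28 and 5.47 FPKM in the wild type and 1.28, 0.864 and 5.96 FPKM in the duodecuple line, close to PRR7 itself in level as well as pattern. For GI they were AT5G48657 at 0.17, AT3G54150 at 0.18 and AT2G22880 at 0.21, and for ELF4 AT2G19130 at 0.13, AT5G07820 at 0.14 and AT2G42950 at 0.14. GI itself, at 3.56 FPKM or less in every group, lay below the 5 FPKM asked of the genes compared. Its neighbours and its distance to PRR7 rest on low values. With only 6 values a gene, such neighbours are a description of these groups.

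Beyond the members, a list of 29 other clock genes had 14 in the table. By the authors' deposited table, 4 of the 14 rose and 2 fell under ABA in the wild type, and 0 of the 14 were called in the duodecuple line. The table had 17.6% of its genes higher and 27.3% lower in the wild type, and 5.28% called in the duodecuple line. Both falls were the cold- and light-regulated clock repressors COR27, 2.24-fold from 31.2 to 13.9 FPKM, and COR28 (AT4G33980), 2.18-fold from 22.1 to 10.1 FPKM. They fell beside LUX, and in the duodecuple control they stood at 18.0 and 17.9 FPKM. The 4 rises, all below 5 FPKM and named after their values were seen, were the MYB-like gene RVE3 (AT1G01520) from 0.248 to 1.54 FPKM, the coactivator genes LNK1 (AT5G64170) from 0.568 to 1.82 FPKM and LNK3 (AT3G12320) from 0.494 to 1.39 FPKM, and ELF4-L1 (AT2G29950) from 1.49 to 4.46 FPKM.

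Under mannitol 7 of the 14 other clock genes rose and 3 fell in the wild type, and 6 rose and 2 fell in the duodecuple line, with 6 called the same way in both. The table had 33.1% higher and 35.3% lower in the wild type, and 23.3% and 27.2% in the duodecuple line. LNK1, a coactivator of evening genes, rose 10.1-fold from 0.568 to 5.73 FPKM in the wild type and 4.66-fold to 3.30 FPKM in the duodecuple line. FKF1 (AT1G68050), a blue-light receptor that works with GI, rose 2.12-fold and 2.25-fold, beside GI. CHE (AT5G08330), a TCP-family repressor of CCA1, fell 5.06-fold from 79.6 to 15.8 FPKM in the wild type and 3.07-fold from 53.3 to 17.3 FPKM in the duodecuple line. The MYB-like genes RVE1 (AT5G17300) and RVE4 (AT5G02840) fell 3.28-fold and 2.33-fold in the wild type, where RVE6 (AT5G52660) rose 2.12-fold, and none of these 3 was called in the duodecuple line. RVE2 (AT5G37260) fell 2.14-fold and ELF4-L3 (AT2G06255) rose 2.57-fold, each called in the duodecuple line and not in the wild type. No test of a difference between the genotypes was possible for these calls.

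The clock's output genes, 11 of 20 in the table, gave 3 rises and 1 fall under ABA in the wild type, where 17.6% of the table rose and 27.3% fell, and no call in the duodecuple line, where 5.28% was called. CDF1 (AT5G62430), a DOF-type repressor of flowering that GI and FKF1 remove, rose 2.29-fold from 2.25 to 5.15 FPKM, and BBX25 (AT2G31380), a B-box factor of light signalling, rose 2.42-fold to 16.6 FPKM. Under mannitol 5 rose and 2 fell in the wild type, and 3 rose and 1 fell in the duodecuple line, against the table shares given above for mannitol. PIF4 (AT2G43010), a bHLH growth factor that the evening complex represses, rose 10.8-fold from 0.844 to 9.13 FPKM in the wild type and 11.9-fold from 0.331 to 3.93 FPKM in the duodecuple line. CCL (AT3G26740) rose 2.75-fold from 802 to 2204 FPKM in the wild type and stood at 602 and 655 FPKM in the duodecuple line without a call.

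FT (AT1G65480), the mobile flowering signal, fell under mannitol in both genotypes, 4.56-fold from 4.57 to 1.00 FPKM in the wild type and 2.68-fold from 7.12 to 2.65 FPKM in the duodecuple line. FT was also the output gene that fell under ABA in the wild type, 2.26-fold to 2.03 FPKM, and it stood at 6.36 FPKM in the ABA-treated duodecuple line without a call. COL9 (AT3G07650), a CONSTANS-like gene, fell 2.63-fold under mannitol in the wild type, where BBX24 (AT1G06040) rose 2.04-fold. CDF2 (AT5G39660) and the catalase gene CAT3 (AT1G20620) rose 2.69-fold and 2.35-fold under mannitol in the duodecuple line. None of the 4 photoreceptor genes sought, PHYA, PHYB, CRY1 and CRY2, was among the listed genes. Over the members and both lists together, 27 of 31 genes had a smaller absolute log2 ratio under ABA in the duodecuple line than in the wild type, and 20 of 31 under mannitol. The same held for 82.3% of table genes under ABA and 61.7% under mannitol, so the clock genes were close to the table in this. The median log2 ratio under mannitol was 0.50 in the wild type and 0.88 in the duodecuple line for the other clock genes, and 0.85 and 0.49 for the output genes.

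**Figure D4:**
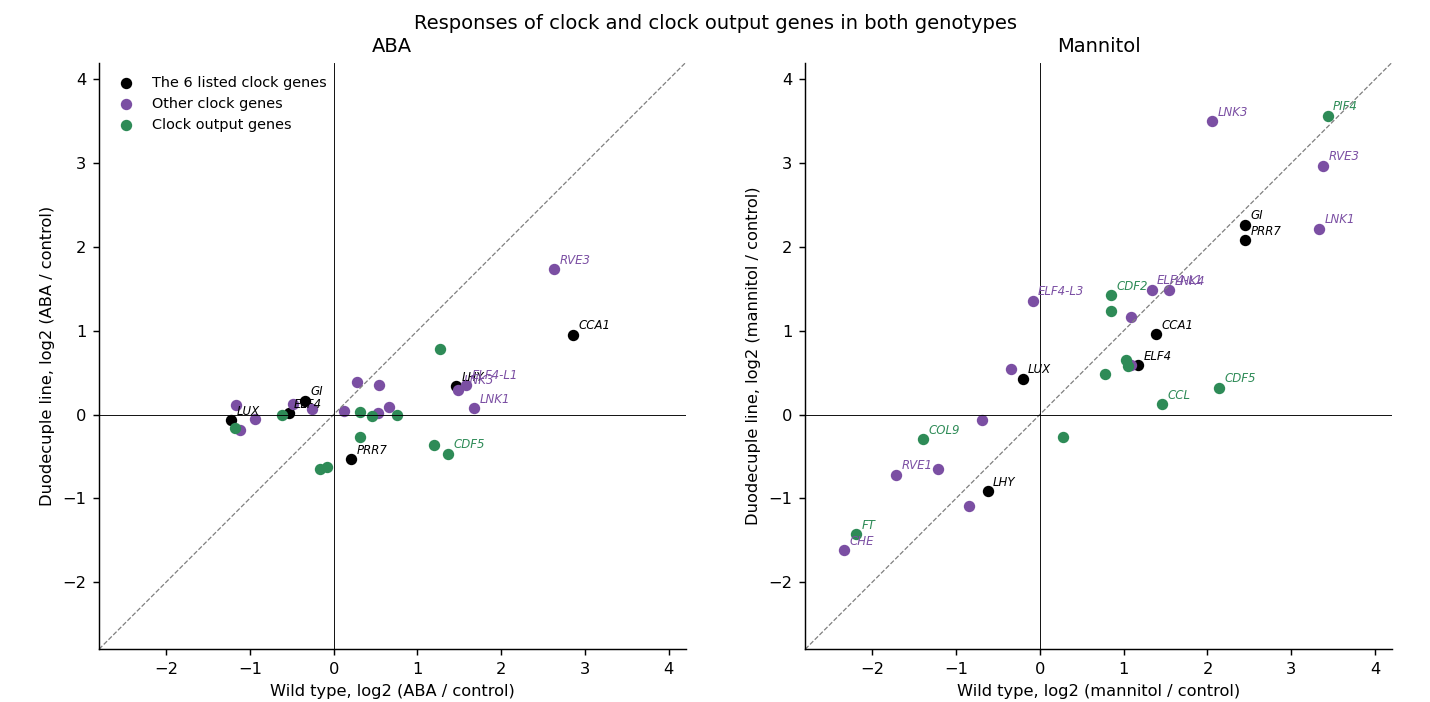
Log2 ratio of treated over control in the wild type (horizontal) and the duodecuple line (vertical) for the 6 listed clock genes in black, 14 other clock genes in purple and 11 clock output genes in green, under ABA on the left and mannitol on the right. The dashed line marks equal ratios, and gene names are given for the 6 members and the larger responses. Under ABA 27 of the 31 points lie closer to 0 in the duodecuple line than in the wild type, and under mannitol 20 do.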

How the data were processed

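RNA from whole seedlings was sequenced in 18 samples, 3 in each of 6 groups taken from the sample titles. The submitters' processing notes name TopHat, Cufflinks, Cuffdiff and the build TAIR10, whose versions, settings and handling of strand are not given in the sources used here. The deposited table holds 1 value per group, taken as FPKM since Cufflinks reports it and the header is silent, with the log2 ratio of treated over control by the authors and their yes or no call, whose rule is not stated. The deposited log2 ratios and ratios recomputed from the group values differed by at most 4.68e-05, which leaves no room for a pseudocount. Neither values per sample nor p-values were analysed here, so the planned models could not be fitted, and depth and precision are unknown.

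The members, lists and limits were chosen with earlier results of these data known. Ratios without an authors' call were counted at 2-fold or more with no pseudocount. Shares of the table are over all 6740 listed genes for the authors' calls, and for ratios over the 6696 to 6734 genes for which the ratio or the difference of ratios was defined. From each list the named genes were, per comparison and direction, up to 4 called genes with the largest ratio and at least 5 FPKM in the higher group, and exceptions are stated. Genes named by this rule were also given in other comparisons below that level. These were FT in the wild type, and LNK1, FKF1 and PIF4 under mannitol in the duodecuple line. Nearest genes were the 3 with the smallest root mean square difference of centred log2 values. Symbols, gene positions and sequences came from the RefSeq annotation of TAIR10.1, and the deposited table gives no coordinates. Of its 6740 loci, 6726 matched. The ratio and likeness steps were tested on simulated data. Alternatives were pseudocounts of 1 and 5 FPKM, a 2-fold ratio in place of the call, a 4-fold limit, a minimum of 5 FPKM and centring on the median ratio of the table. The other 2 deposited tables repeat parts of this one and were not used. The scripts ran in Python 3.11.15 with pandas 2.3.3, numpy 2.4.6 and, for plots, matplotlib 3.10.9.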

Additional observations from a re-analysis of the deposited data

How the results depend on the processing

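No paired analysis was possible because the table holds 1 value per group, and leaving out single replicates could not be run for the same reason. Of 55 recomputed counts of members, 39 stayed within 1.5 times the reported count. Among these, counts reported as 0 stayed at 0, and a minimum of 5 FPKM or a 4-fold limit could not move them. Some of the 39 used a 2-fold ratio in place of the call. Only 1 call of the table lay under 2-fold, so this swap could take away hardly any called member. It could have added uncalled members at 2-fold or more, and it added none. No called or 2-fold ratio of a member changed sign under any of the alternatives run. For simple ratios between groups this was fixed in advance. An amount added to both values cannot reverse a ratio, and the largest centring shift was 0.20 in log2. The counts that moved beyond 1.5 times were these. With 5 FPKM added to every value, members at least 2-fold apart went from 4 to 1 for mannitol in the wild type, from 2 to 0 for mannitol in the duodecuple line, from 2 to 0 between the control genotypes, from 1 to 0 between the mannitol-treated genotypes, from 6 to 3 and from 3 to 0 for mannitol against ABA in the wild type and the duodecuple line, and from 3 to 1 for the difference in ABA response. With 1 FPKM added, the count between the control genotypes went from 2 to 1, as it did with a minimum of 5 FPKM and with centring on the table median. That minimum also took the calls under mannitol in the duodecuple line from 2 to 1. With a 4-fold limit the counts went from 2 to 0 between the control genotypes, from 2 to 1 under ABA, from 1 to 0 under mannitol, from 6 to 3 for mannitol against ABA in the wild type and from 3 to 0 for the difference in ABA response. Smaller changes were these. Mannitol against ABA in the wild type went from 6 to 5 with 1 FPKM added, with the minimum and with centring. Centring also took mannitol in the duodecuple line from 2 to 3 and the difference in ABA response from 3 to 2. Adding 5 FPKM took ABA in the wild type from 3 to 2. The minimum took mannitol in the wild type from 4 to 3. Mannitol against ABA in the duodecuple line went from 3 to 2 with the minimum and with the 4-fold limit. A pseudocount lowers the ratios of low genes by construction, and PRR7, GI and, outside the ABA-treated wild type, CCA1 are low. Centring shifted log2 ratios by -0.18 for ABA in the wild type, by -0.16 for mannitol in the duodecuple line, by 0.10 between the ABA-treated genotypes, by 0.20 and -0.20 for mannitol against ABA in the wild type and the duodecuple line, and by 0.20 for the difference in ABA response. The precision of single values is unknown, since depth and replicate values are not part of the table.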
